A study of Mus musculus with 16 samples.

Results

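Interferon-stimulated genes are induced when a cell's interferon receptors are engaged, and many of their products act against viruses. A list of 41 of them, chosen by gene symbol, was followed through RNA-seq data of mouse spinal cord. Of the 41 symbols, 41 were among the 18167 genes of the processed table, and 37 of them had a mean level of at least 1 over all mice. The libraries came from 16 transgenic mice that carried human profilin 1, an actin-binding protein whose mutations are a known cause of familial amyotrophic lateral sclerosis. The question addressed by the study was how gene expression differs between mice with the G118V mutant protein and mice with the wild-type protein, before symptoms and at the end stage of disease. The MO group (mutant old) held 5 mice of C57BL/6N-Tg(Prnp-PFN1*G118V), line 838Kiaei/J, killed at the end stage at 175 to 245 days of age. The MY group (mutant young) held 3 presymptomatic mice of the same strain, 50 days old. The WO group (wild-type old) held 5 mice of C57BL/6N-Tg(Prnp-PFN1), line 850Kiaei/J, 190 to 294 days old, and the WY group (wild-type young) held 3 mice of that strain, 50 days old. Both transgenes were placed in the MoPrP.Xho vector, in which the mouse prion protein (*Prnp*) promoter drives expression in neurons and in other cells. Each genotype was represented by 1 transgenic line, so effects of the mutation and of the line cannot be told apart, and mice without a transgene were not analysed here. All mice were described as male. Libraries were prepared in 2 batches, and the 3 WY mice, the 3 MY mice, WO1 to WO3 and MO1 to MO3 belonged to batch 1. Batch 2 held WO4 and WO5, both 294 days old, with MO4 (224 days) and MO5 (175 days), and no young mice.

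Type I interferons, interferon alpha and beta, bind a receptor built from IFNAR1 and IFNAR2, whose kinases JAK1 and TYK2 activate transcription factors of the STAT family. Together with IRF9, these factors bind a short promoter element, the interferon-stimulated response element. Interferon gamma uses another receptor, and its signal acts through another element, the gamma-activated site. In the central nervous system, microglia, astrocytes, neurons and endothelial cells can all respond to interferon, and microglia that express such genes are a known state in neurodegeneration.

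Levels are given as log2(1 + FPKM), where FPKM is a count of sequenced fragments scaled by transcript length and library size, after the authors' correction for library batch with ComBat. Values are means ± SD over mice (n = 3 for WY and MY, n = 5 for WO and MO) unless single mice are named, and a log2 fold change is the difference between group means on this scale. Such a difference understates the change of genes of low abundance. For *Slfn2*, the MO over WO ratio was 2.64 on the scale used and 5.25 between mean FPKM values. The covariates of the ComBat step were not stated, and how deeply each gene was sequenced is unknown. A gene was said to rise or fall when limma gave a Benjamini-Hochberg adjusted p (BH FDR) at or below 0.05 over the 18167 genes together with a fold change of at least 1.5 (log2 0.585). Motor neurons of the spinal cord were represented, with the choline acetyltransferase gene *Chat* at 3.95 ± 0.070 in WO. In bulk tissue, fewer cells of a type and less RNA per cell cannot be told apart, and neither can more cells and more RNA per cell. The library of MO5 went against the male label. Its level of *Xist*, the RNA that silences an X chromosome in females, was 3.21, against at most 0.37 in the 15 other mice. The Y-linked *Ddx3y* was at 1.95 in MO5 and at 4.06 or more in the others. *Uty* (1.05), *Kdm5d* (1.07) and *Eif2s3y* (1.82) were also lower in MO5 than in any other mouse. Counts of members past both thresholds are therefore also given without MO5, and other counts include it.

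Interferon-stimulated genes were higher in end-stage mutant mice than in either comparison group. Between WO and MO, 21 of the 41 members rose, against 4.08% of all 18167 genes, and 0 fell, against 0.517% of all genes. The median log2 fold change was 0.60 over the members and 0.00035 over all genes, and 39 of the 41 differences were positive. Between MY and MO, 21 members rose, against 4.11% of all genes, and 0 fell, against 0.787%. There the median was 0.61 over the members and 0.0047 over all genes, with 39 positive differences. The MO mice are shared by both comparisons, so values are set side by side for each gene. The members with a negative difference in each comparison were *Adar* and *Cmpk2*, whose unadjusted limma p values were 0.0700 and 0.0130 in WO vs. MO and 0.0547 and 0.0280 in MY vs. MO. By the BH FDR alone, with no minimum fold change, 36 members were higher in MO than in WO (15.0% of all genes) and 1, *Cmpk2*, was lower (12.9% of all genes). The same threshold put 38 members higher in MO than in MY, against 13.1% of all genes. Without MO5, 22 members rose in WO vs. MO and 23 in MY vs. MO. The shares of all genes given above are from fits that include MO5. Within batch 1, where each old group had 3 mice, the median difference between WO and MO was 0.53 with 38 of 41 positive. Within batch 2, with 2 mice per group, it was 0.67 with 39 positive.

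**Figure D1:**
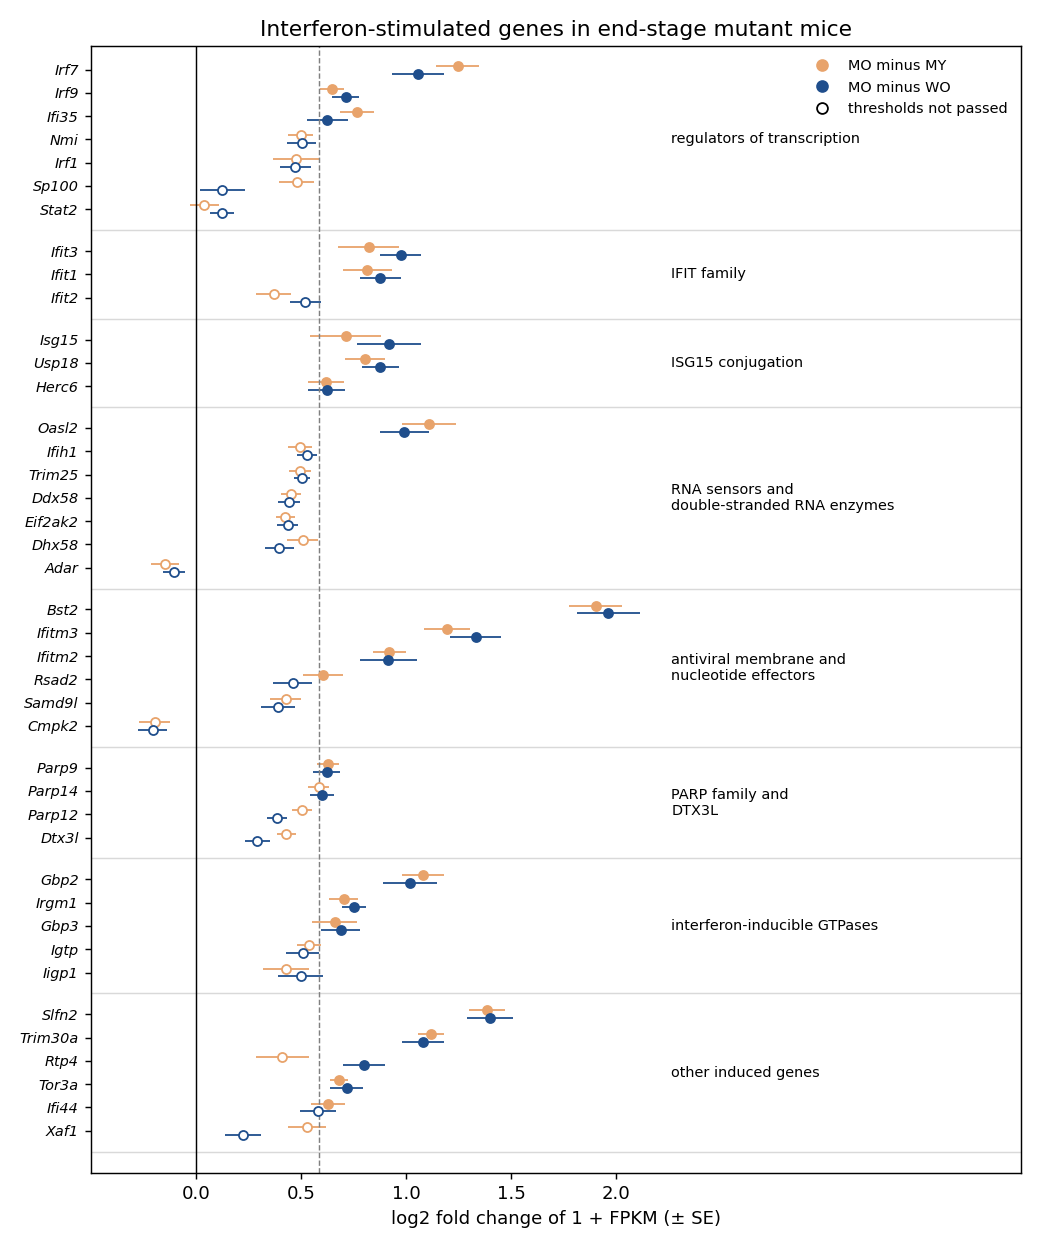
Log2 fold change of 1 + FPKM (horizontal axis, ± SE) of the 41 members, grouped by role, for MO minus MY (orange) and MO minus WO (blue), with filled points for genes that passed both thresholds and a dashed line at a fold change of 1.5. Differences were positive for 39 members in each comparison, with *Bst2* at the far right (1.90 and 1.96) and *Adar* and *Cmpk2* to the left of 0.

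Among 7 regulators of transcription, *Irf7*, *Irf9* and *Ifi35* rose in both comparisons and 4 passed neither. *Irf7* (chr7:141262706-141266481, minus strand, GRCm38) encodes the transcription factor that amplifies production of type I interferon and is itself induced by it. Its level was 1.70, 1.24 and 1.49 in the WY mice and 1.17, 1.41 and 1.05 in the MY mice, in the order of their numbers. WO1 to WO5 had 1.71, 1.53, 1.52, 1.04 and 1.20, and MO1 to MO5 had 2.25, 2.52, 2.35, 2.57 and 2.59. The lowest MO mouse (MO1) was above the highest of the other 11 mice (WO1), and within WO the mice of batch 2 were the lowest. *Irf7* rose by 1.06 (SE 0.12, limma, BH FDR = 0.000159) from WO and by 1.25 (SE 0.10, limma, BH FDR = 0.000270) from MY. *Irf9*, the DNA-binding subunit of the STAT complex, was 3.31 ± 0.075 in MO against 2.59 ± 0.14 in WO, 2.66 ± 0.082 in MY and 2.62 ± 0.31 in WY, with log2 fold changes of 0.71 from WO and 0.65 from MY. *Ifi35*, which binds the protein of *Nmi*, stood at 2.03 ± 0.23 in WY, 2.01 ± 0.15 in MY, 2.16 ± 0.21 in WO and 2.78 ± 0.11 in MO. Its log2 fold change was 0.77 from MY and 0.62 from WO, and the latter was 0.56 without WO4 and 0.52 in batch 1, both under the fold threshold.

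The other 4 regulators differed by less than 1.5-fold. *Stat2* (chr10:128270559-128292849, plus strand) encodes the STAT partner of IRF9, and had the smallest difference from WO in its group. It was at 3.06, 2.71 and 2.71 in WY1 to WY3 and at 2.94, 2.90 and 2.83 in MY1 to MY3. Among the old mice, WO1 to WO5 had 2.86, 2.83, 2.72, 2.75 and 2.86 and MO1 to MO5 had 2.91, 2.75, 2.99, 3.06 and 2.94. All 4 groups overlapped, and the highest single value belonged to WY1. The log2 fold change was 0.12 (SE 0.058, limma, BH FDR = 0.146) in WO vs. MO and 0.039 (SE 0.069, limma, BH FDR = 0.742) in MY vs. MO, where it was -0.0080 with the mice of batch 1. *Irf1*, a factor induced early by interferon gamma, was at 1.87 in WY, 1.86 in MY, 1.86 ± 0.079 in WO and 2.33 ± 0.16 in MO, a difference of 0.47 from WO and 0.47 from MY. *Nmi*, which binds STAT proteins, was at 2.12, 2.13 and 2.13 ± 0.14 in WY, MY and WO and at 2.63 ± 0.094 in MO, or 0.50 above WO and 0.50 above MY. The BH FDR of *Irf1* and *Nmi* passed in both comparisons (limma, 0.000921 and 0.000485 in WO vs. MO), and only the fold threshold was missed. *Sp100*, a component of nuclear PML bodies, differed by 0.48 between MY (0.99 ± 0.14) and MO (1.47 ± 0.11) but by 0.12 (SE 0.11, limma, BH FDR = 0.445) between WO (1.34 ± 0.24) and MO. WO1 (1.41), WO2 (1.58) and WO3 (1.51) lay within the MO range for this gene, while WY averaged 1.05. Its difference between WO and MO was -0.032 within batch 1 and 0.36 within batch 2.

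IFIT proteins bind viral RNA that lacks the cap modifications of host mRNA. Of 3 members of this family, *Ifit1* and *Ifit3* rose in both comparisons, and *Ifit2* passed the BH FDR but not the fold threshold. *Ifit3* (chr19:34583531-34588731, plus strand) was at 2.71, 2.50 and 2.44 in WY1 to WY3 and at 2.37, 2.88 and 2.46 in MY1 to MY3. WO1 to WO5 had 2.46, 2.45, 2.56, 2.27 and 2.34, against 3.10, 3.46, 3.29, 3.65 and 3.44 in MO1 to MO5. MO did not overlap with any group, MO4 was the highest and MO1 the lowest of the MO mice, and MY2 was the highest of the others. The log2 fold change was 0.97 (SE 0.10, limma, BH FDR = 5.74e-05) from WO and 0.82 (SE 0.15, limma, BH FDR = 0.00481) from MY. *Ifit1* went from 1.40 ± 0.20 in WO, 1.46 ± 0.25 in MY and 1.504 ± 0.091 in WY to 2.28 ± 0.14 in MO, rises of 0.88 and 0.82 over WO and MY. *Ifit2* averaged 2.52 in WY, 2.62 in MY, 2.47 ± 0.10 in WO and 2.99 ± 0.14 in MO, differences of 0.52 from WO and 0.37 from MY. The 3 genes lie on chromosome 19, with *Ifit2* and *Ifit3* 7111 bases apart.

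ISG15 is a ubiquitin-like protein that is joined to other proteins, HERC6 is the mouse ligase that attaches it, and USP18 removes it and also dampens signalling at the interferon receptor. All 3 genes rose in both comparisons. *Isg15* (chr4:156199424-156200818, minus strand) was at 2.33, 2.00 and 2.37 in the WY mice and at 2.05, 2.24 and 1.96 in the MY mice. WO1 to WO5 had 2.12, 2.07, 1.60, 1.81 and 1.78, and MO1 to MO5 had 2.32, 2.91, 2.68, 3.18 and 2.90. The MO mice spread over a wide range, and MO1 lay above every WO and MY mouse but below WY1 and WY3. *Isg15* rose by 0.92 (SE 0.15, limma, BH FDR = 0.00134) from WO. Its rise from MY was 0.71 (SE 0.17, limma, BH FDR = 0.0172). That rise missed the BH FDR (limma) without MY1 (0.70, FDR = 0.0675) or without MY3 (0.65, FDR = 0.0739), and it missed the fold threshold among the mice of batch 1 (0.55). In batch 1 the difference from WO was 0.71 (limma, BH FDR = 0.0558). *Usp18* was at 1.09 ± 0.35 in WY, 1.03 ± 0.22 in MY, 0.95 ± 0.20 in WO and 1.83 ± 0.088 in MO, rises of 0.88 from WO and 0.80 from MY. *Herc6* was at 1.25 ± 0.030 in WY, 1.34 ± 0.028 in MY, 1.34 ± 0.14 in WO and 1.96 ± 0.16 in MO, rises of 0.62 and 0.62. These were close to the fold threshold. Without MO1 or MO2, *Herc6* missed it in both comparisons (0.58 and 0.58 in WO vs. MO, 0.58 and 0.58 in MY vs. MO), and without WO5 in WO vs. MO (0.58).

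Of 7 sensors of RNA and enzymes that act on double-stranded RNA, *Oasl2* alone rose in both comparisons, 5 passed the BH FDR with less than 1.5-fold, and *Adar* did not pass. OASL2 belongs to the oligoadenylate synthetase family. *Oasl2* (chr5:114896936-114912234, plus strand) was at 1.86, 1.53 and 1.41 in WY1 to WY3 and at 1.38, 1.78 and 1.36 in MY1 to MY3. It was at 1.84, 1.64, 1.79, 1.29 and 1.54 in WO1 to WO5, with WO4 lowest, and at 2.81, 2.61, 2.37, 2.78 and 2.50 in MO1 to MO5, with MO3 lowest. Every MO mouse was above all 11 others. The rise was 0.99 (SE 0.12, limma, BH FDR = 0.000145) from WO and 1.11 (SE 0.13, limma, BH FDR = 0.000744) from MY. The cytosolic sensors RIG-I (*Ddx58*), MDA5 (*Ifih1*) and LGP2 (*Dhx58*) recognise double-stranded or triphosphate RNA. *Ddx58* was at 1.35 in WY, 1.35 in MY, 1.36 ± 0.090 in WO and 1.80 ± 0.067 in MO, which is 0.44 above WO and 0.45 above MY. *Ifih1* was at 1.07, 1.02 and 0.98 ± 0.054 in WY, MY and WO and at 1.51 ± 0.090 in MO, a difference of 0.53 from WO and 0.49 from MY. For *Dhx58* these levels were 1.04, 0.98, 1.09 ± 0.14 and 1.49 ± 0.093, and the differences 0.39 and 0.51. In batch 1 the BH FDR of *Dhx58* in WO vs. MO was 0.0828 (limma). TRIM25 is a ubiquitin ligase that acts on RIG-I, and PKR (*Eif2ak2*) is a kinase that halts translation when it binds double-stranded RNA. *Trim25* was at 1.59 in WY, 1.49 in MY, 1.48 ± 0.063 in WO and 1.98 ± 0.035 in MO, or 0.50 above WO and 0.50 above MY. *Eif2ak2* was at 2.08 in WY, 1.99 in MY, 1.98 ± 0.10 in WO and 2.42 ± 0.054 in MO, or 0.44 and 0.42 above WO and MY. In each of these 5 genes all MO mice were above all 11 others, although the fold was small.

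ADAR edits adenosine to inosine in double-stranded RNA, which keeps the cell's own RNA from activating MDA5. The gene has an interferon-inducible and a constitutive promoter, and a gene-level value does not separate their transcripts. *Adar* (chr3:89715022-89753446, plus strand) was at 4.82, 5.18 and 4.99 in WY1 to WY3 and at 5.13, 5.02 and 5.08 in MY1 to MY3. The old mice WO1 to WO5 had 5.05, 5.00, 5.05, 5.01 and 5.05, and MO1 to MO5 had 5.01, 4.81, 4.90, 4.85 and 5.08. MO5 was above every WO mouse, whereas MO2, MO3 and MO4 were below all of them, and the WY mice spanned the widest range. The groups differed by -0.10 (SE 0.052, limma, BH FDR = 0.167) in WO vs. MO and -0.15 (SE 0.067, limma, BH FDR = 0.145) in MY vs. MO.

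Effectors at membranes and in nucleotide metabolism included the member with the largest rise, *Bst2*. Of 6 such genes, *Bst2*, *Ifitm2* and *Ifitm3* rose in both comparisons, *Rsad2* rose from MY, and *Samd9l* and *Cmpk2* did not pass both thresholds in either. *Bst2* (chr8:71534255-71537456, minus strand) encodes tetherin, a membrane protein that holds budding virus particles at the cell surface. It was at 3.01, 2.42 and 2.60 in WY1 to WY3 and at 2.39, 2.90 and 2.80 in MY1 to MY3. Old mice had 2.76, 3.06, 2.79, 2.23 and 2.34 (WO1 to WO5) and 4.41, 4.62, 4.83, 4.59 and 4.56 (MO1 to MO5). The lowest MO mouse exceeded the highest other mouse (WO2) by more than the spread within any group, and WO4 and WO5 were the lowest of all mice. *Bst2* rose by 1.96 (SE 0.15, limma, BH FDR = 2.16e-05) from WO and by 1.90 (SE 0.13, limma, BH FDR = 0.000203) from MY. IFITM proteins block fusion of viruses with cell membranes. *Ifitm3* was the most abundant member in each MO mouse, at 6.36 ± 0.18, against 5.03 ± 0.25 in WO, 5.17 ± 0.14 in MY and 5.16 ± 0.18 in WY, and rose by 1.33 (SE 0.12, limma, BH FDR = 3.93e-05) from WO and 1.19 from MY. *Ifitm2* went from 3.60 ± 0.31 in WO, 3.59 ± 0.091 in MY and 3.78 ± 0.28 in WY to 4.51 ± 0.13 in MO, a rise of 0.92 from WO and 0.92 from MY. Reads can be shared between near-identical copies, so values of *Ifitm2* and *Ifitm3*, of *Ifit3* and its copy *Ifit3b*, and of the *Gbp*, *Trim30* and *Slfn* families are uncertain as to the exact copy. *Samd9l*, a regulator of cell growth, was at 0.99 in WY, 1.05 in MY, 1.09 ± 0.15 in WO and 1.48 ± 0.12 in MO, a difference of 0.39 from WO and 0.43 from MY. In batch 1 its BH FDR in WO vs. MO was 0.0590 (limma).

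*Rsad2* and *Cmpk2* are neighbours on chromosome 12, transcribed away from each other with 12751 bases between them, and are commonly induced together by interferon. RSAD2 (viperin) makes a chain-terminating nucleotide from CTP, and CMPK2 is a nucleotide kinase. *Rsad2* was low in every group, at 0.64 ± 0.070 in WY, 0.44 ± 0.040 in MY, 0.59 ± 0.14 in WO and 1.05 ± 0.18 in MO. It rose by 0.61 (SE 0.10, limma, BH FDR = 0.00293) from MY. Without MY2 (0.58) or MO2 (0.55) it missed the fold threshold, and its difference from WO was 0.46 (SE 0.092, limma, BH FDR = 0.00387). *Cmpk2* (chr12:26469204-26479837, plus strand) was at 3.61, 3.81 and 3.80 in WY1 to WY3 and at 3.84, 3.77 and 3.86 in MY1 to MY3. In WO1 to WO5 it was at 3.79, 3.90, 3.93, 3.68 and 3.86, and in MO1 to MO5 at 3.59, 3.61, 3.48, 3.84 and 3.60. Except for MO4, the MO mice were below every WO and MY mouse, and WY1 lay within their range. The log2 fold change was -0.21 (SE 0.070, limma, BH FDR = 0.0474) in WO vs. MO and -0.20 (SE 0.075, limma, BH FDR = 0.0898) in MY vs. MO. These results depended on how batch was handled. Among the mice of batch 1, *Cmpk2* differed by -0.31 from WO (limma, BH FDR = 0.0228) and by -0.26 from MY (limma, BH FDR = 0.0156). Within batch 2 it differed from WO by only -0.049 (SE 0.11, limma, BH FDR = 0.816). With batch as a term, the BH FDR (limma) was 0.0604 in WO vs. MO and 0.0348 in MY vs. MO. Within batch 1 the difference of *Rsad2* from WO had a BH FDR of 0.102 (limma). The neighbours thus differed between WO and MO in opposite directions, and neither difference reached 1.5-fold.

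PARP9, PARP12 and PARP14 belong to the family that adds ADP-ribose to proteins, and DTX3L is a ubiquitin ligase that works as a pair with PARP9. Of these 4 genes, *Parp9* rose in both comparisons and *Parp14* rose from WO, while *Parp12* and *Dtx3l* passed the BH FDR only, which *Dtx3l* missed in WO vs. MO among the mice of batch 1 (limma, 0.0661). *Parp9* (chr16:35938470-35972605, plus strand) was at 1.24, 1.30 and 1.21 in WY1 to WY3 and at 1.22, 1.34 and 1.17 in MY1 to MY3. WO1 to WO5 had 1.36, 1.33, 1.35, 1.13 and 1.07, against 1.87, 1.86, 1.96, 1.79 and 1.88 in MO1 to MO5. All MO mice were well above the other 11, and WO4 and WO5 were the lowest of all mice. The rise was 0.62 (SE 0.065, limma, BH FDR = 7.67e-05) from WO and 0.63 (SE 0.053, limma, BH FDR = 0.000285) from MY. The first of these was 0.58 without WO5 and 0.55 in batch 1, under the fold threshold. After quantile normalization both missed it, at 0.53 from WO and 0.50 from MY.

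*Dtx3l* (chr16:35926511-35939151, minus strand) overlaps *Parp9*, which lies head to head on the opposite strand (a gap of -682 bases). It was at 1.24, 1.42 and 1.26 in WY1 to WY3 and at 1.29, 1.36 and 1.20 in MY1 to MY3. The old mice WO1 to WO5 had 1.49, 1.44, 1.60, 1.27 and 1.30, and MO1 to MO5 had 1.76, 1.69, 1.72, 1.67 and 1.72. The MO mice were closer to each other than those of any other group and above all 11 others, with WO3 next below them. The groups differed by 0.29 (SE 0.061, limma, BH FDR = 0.00492) in WO vs. MO and 0.43 (SE 0.045, limma, BH FDR = 0.000524) in MY vs. MO. *Parp14* was at 0.72 ± 0.057 in WY, 0.76 ± 0.082 in MY, 0.75 ± 0.12 in WO and 1.35 ± 0.052 in MO. Its difference of 0.60 from WO passed, at 0.56 without WO4 and 0.58 without WO5 it did not, and that of 0.58 from MY missed the fold threshold. *Parp12* was at 2.50 in WY, 2.33 in MY, 2.45 ± 0.088 in WO and 2.84 ± 0.059 in MO, 0.39 above WO and 0.50 above MY.

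Guanylate-binding proteins (GBP) and immunity-related GTPases (IRGM1, IGTP and IIGP1) are induced mainly by interferon gamma and act on membranes around intracellular pathogens. Of 5 such genes, *Gbp2*, *Gbp3* and *Irgm1* rose in both comparisons, and *Igtp* and *Iigp1* passed the BH FDR only. *Gbp2* (chr3:142620602-142638008, plus strand) was at 1.68, 1.47 and 1.63 in WY1 to WY3 and at 1.52, 1.56 and 1.48 in MY1 to MY3. Old mice had 1.68, 1.54, 1.98, 1.30 and 1.40 (WO1 to WO5) and 2.31, 2.66, 2.75, 2.76 and 2.52 (MO1 to MO5). WO3 was the highest of the mice outside MO, MO1 was the lowest within MO, and the groups did not overlap. *Gbp2* rose by 1.02 (SE 0.13, limma, BH FDR = 0.000250) from WO and by 1.08 (SE 0.10, limma, BH FDR = 0.000319) from MY. Its neighbour *Gbp3* was at 1.76 ± 0.24 in WY, 1.69 ± 0.064 in MY, 1.66 ± 0.12 in WO and 2.35 ± 0.20 in MO, rises of 0.69 and 0.66 over WO and MY, although the first was 0.58 among the mice of batch 1 and the second 0.56 after quantile normalization, both under the fold threshold. *Irgm1*, which also regulates autophagy, was at 2.65 ± 0.10 in WY, 2.67 ± 0.13 in MY, 2.62 ± 0.10 in WO and 3.37 ± 0.082 in MO, rises of 0.75 and 0.70. *Igtp* averaged 1.90 in WY, 1.97 in MY, 1.99 ± 0.17 in WO and 2.50 ± 0.089 in MO, 0.51 above WO and 0.54 above MY.

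*Iigp1*, on chromosome 18, had the smallest difference from WO among these GTPases. It was at 0.83, 0.77 and 0.68 in WY1 to WY3 and at 0.62, 0.84 and 0.79 in MY1 to MY3. In WO1 to WO5 it was at 0.59, 0.71, 0.93, 0.43 and 0.73, and in MO1 to MO5 at 1.04, 1.43, 0.95, 1.28 and 1.19. The MO mice were above all others, but MO3 exceeded WO3 only slightly. The log2 fold change was 0.50 (SE 0.11, limma, BH FDR = 0.00581) in WO vs. MO and 0.43 (SE 0.11, limma, BH FDR = 0.0216) in MY vs. MO. The BH FDR of *Iigp1* did not pass in all fits. Among the mice of batch 1 it was 0.130 in WO vs. MO and 0.0799 in MY vs. MO (limma). In the latter it was 0.0589 with batch as a term and 0.0790 after quantile normalization.

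Of 6 further induced genes, *Slfn2*, *Trim30a* and *Tor3a* rose in both comparisons, *Rtp4* rose from WO, *Ifi44* rose from MY and *Xaf1* passed neither set of thresholds. SLFN2 is a member of the schlafen family that is needed for quiescence of T cells and monocytes. *Slfn2* (chr11:83065112-83070678, plus strand) was at 0.68, 0.55 and 0.75 in WY1 to WY3 and at 0.54, 0.91 and 0.59 in MY1 to MY3. WO1 to WO5 had 0.79, 0.87, 0.89, 0.28 and 0.50, against 2.09, 2.16, 2.05, 2.00 and 2.02 in MO1 to MO5. The MO mice lay within a narrow range, far above the highest of the others (MY2), and WO4 was the lowest of all mice. *Slfn2* rose by 1.40 (SE 0.11, limma, BH FDR = 2.16e-05) from WO and by 1.39 (SE 0.086, limma, BH FDR = 0.000203) from MY. *Trim30a*, a restrainer of NF-kappaB signalling, was at 1.13 ± 0.21 in WY, 1.11 ± 0.043 in MY, 1.15 ± 0.23 in WO and 2.23 ± 0.10 in MO, rises of 1.08 and 1.12 over WO and MY. *Tor3a*, a torsin ATPase, was at 2.09 ± 0.055 in WY, 2.17 ± 0.052 in MY, 2.13 ± 0.19 in WO and 2.84 ± 0.047 in MO, rises of 0.72 and 0.68. *Rtp4*, a chaperone of membrane receptors, was at 1.69 ± 0.26 in WY, 1.88 ± 0.14 in MY, 1.49 ± 0.11 in WO and 2.29 ± 0.22 in MO, 0.80 above WO and 0.41 above MY. In batch 1 its BH FDR in MY vs. MO was 0.106 (limma). *Ifi44* was low, at 0.47 ± 0.055 in WY, 0.41 ± 0.12 in MY, 0.45 ± 0.16 in WO and 1.04 ± 0.12 in MO. Its difference was 0.63 from MY, or 0.58 and short of the threshold without MY3, and 0.58 from WO.

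XAF1 binds the inhibitor of apoptosis XIAP and favours cell death. *Xaf1* (chr11:72301629-72313733, plus strand) was at 1.96, 1.63 and 1.89 in WY1 to WY3 and at 1.74, 1.86 and 1.69 in MY1 to MY3. The old mice WO1 to WO5 had 2.15, 2.23, 2.11, 1.91 and 1.94, and MO1 to MO5 had 2.41, 2.23, 2.32, 2.44 and 2.04. MO5 lay among the WO mice, whereas every MO mouse was above every young mouse. The log2 fold change was 0.53 (SE 0.091, limma, BH FDR = 0.00432) in MY vs. MO, or 0.59 without MO5, which passed the thresholds (limma, BH FDR = 0.00153). In WO vs. MO it was 0.22 (SE 0.086, limma, BH FDR = 0.0797).

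**Figure D2:**
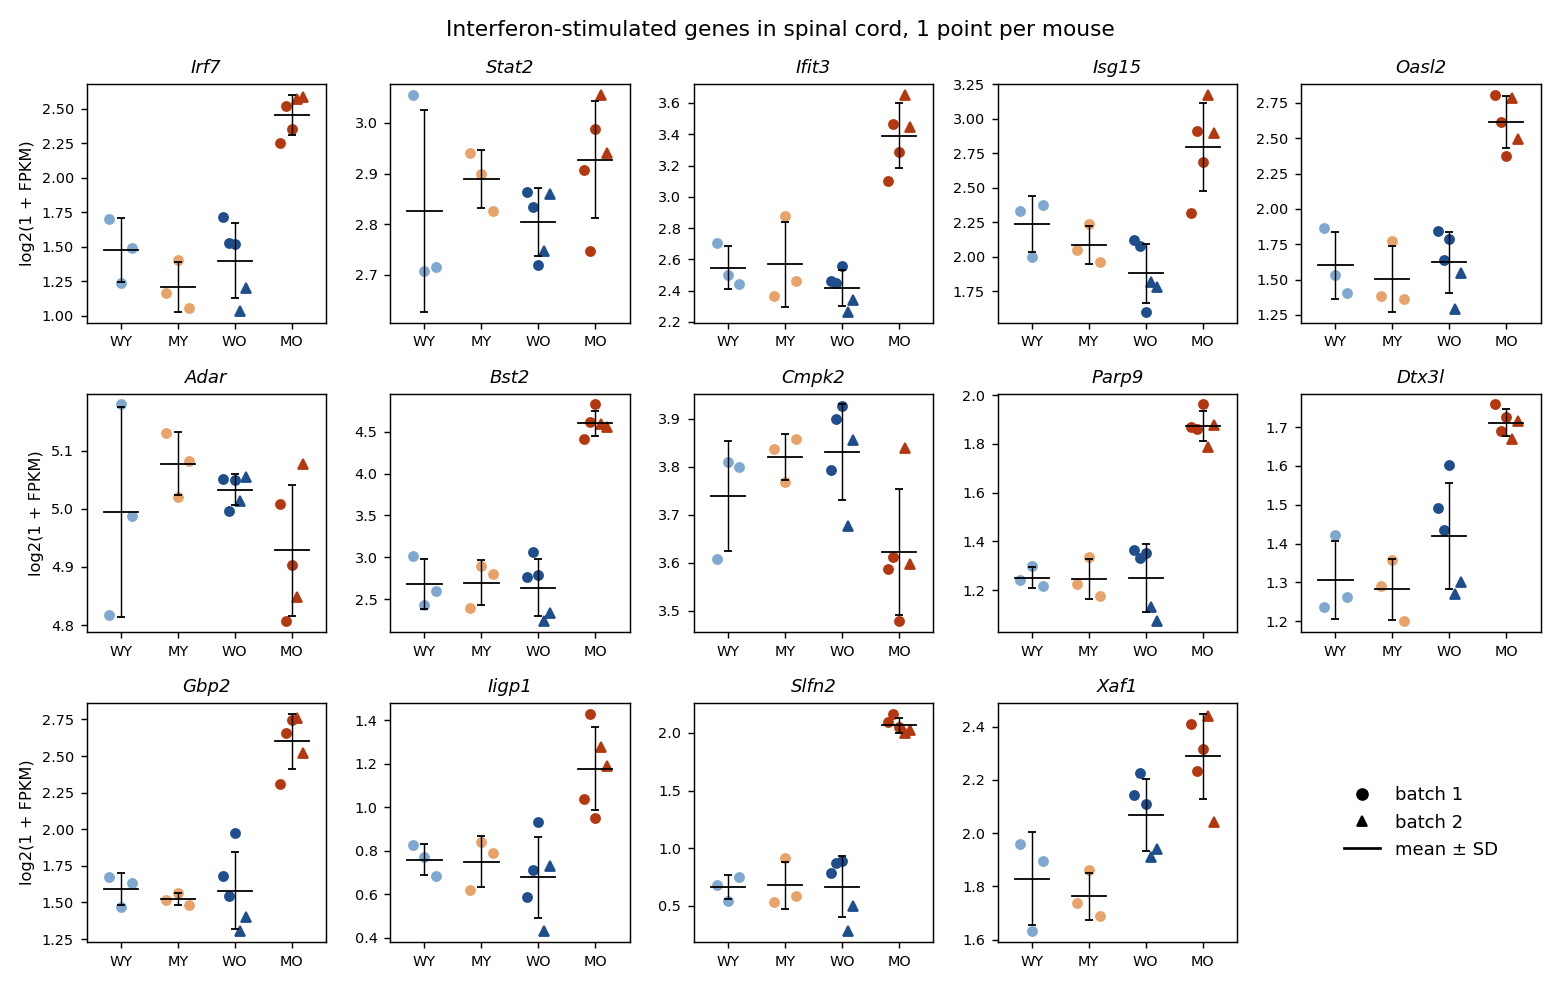
Level of 14 members in each mouse, as log2(1 + FPKM) after batch correction (vertical axis), by group, with circles for batch 1, triangles for batch 2 and bars for mean ± SD. In *Bst2*, *Slfn2* and *Parp9* the 5 MO mice stand clear of the 11 others, while *Stat2*, *Adar* and *Cmpk2* overlap between MO and WO.

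Separation of single mice was common among the members. All 5 MO mice were above all 5 WO mice in 36 of 41 members, against 11.3% of all genes, the exceptions being *Stat2*, *Sp100*, *Adar*, *Cmpk2* and *Xaf1*. They were above all 3 MY mice in 38 members, against 15.7% of all genes, and above all 11 other mice in 35 members, against 7.58%. Summed over the members, FPKM was 196, 177 and 173 in WY1 to WY3 and 174, 193 and 177 in MY1 to MY3. The sums were 195, 184, 191, 154 and 162 in WO1 to WO5 and 292, 328, 326, 325 and 317 in MO1 to MO5. *Ifitm3* or *Adar* was the most abundant member in each mouse, and *Ifitm3* made up 22.5% to 28.0% of the sum in MO.

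Age and genotype alone were compared in mice that had no symptoms. Between WY and WO, 0 of 41 members passed the thresholds in limma, against 0.253% of all genes in either direction. The median log2 fold change was -0.015 over the members and 0.0018 over all genes, and 17 of 41 differences were positive. With an unadjusted p below 0.05 there were 2 members, among 2447 genes. *Isg15* differed by -0.36 (SE 0.13, limma, BH FDR = 0.285) and *Xaf1* by 0.24 (SE 0.10, limma, BH FDR = 0.333), in opposite directions. WO included the older mice of batch 2, which were low in most members. Among the mice of batch 1, where all WO mice were 190 days old, the median was 0.057 over the members and 0.0066 over all genes, with 29 of 41 differences positive and 0 members past the thresholds. There 6 members had an unadjusted p below 0.05, among 2348 genes, and all 6 (*Sp100*, *Xaf1*, *Herc6*, *Samd9l*, *Dtx3l* and *Slfn2*) were higher in WO. The largest difference was that of *Sp100*, at 0.45 (SE 0.070, limma, BH FDR = 0.0521). Between WY and MY, 0 members passed in limma, against 0.0055% of all genes, or 1 gene. There the median was -0.0094 over the members and -0.0025 over all genes, with 18 positive differences. An unadjusted p below 0.05 was found for 2 members, among 1301 genes. These were *Rsad2*, at -0.20 (SE 0.051, limma, BH FDR = 0.573), and *Parp12*, at -0.16 (SE 0.062, limma, BH FDR = 0.676). With 3 mice per group, small differences at 50 days would not be found.

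The difference between ages was compared between genotypes with the interaction term (MO - MY) - (WO - WY), fitted on all 16 mice. It was higher in mutant mice for 22 members, against 4.65% of all genes, and lower for 0, against 0.963%. *Adar* had a term of -0.19 (SE 0.10, limma, BH FDR = 0.232) and *Cmpk2* one of -0.29 (SE 0.11, limma, BH FDR = 0.0772). Among the mice of batch 1 that of *Cmpk2* was -0.40 (limma, BH FDR = 0.0193). The largest terms were those of *Bst2* (1.94), *Slfn2* (1.38), *Ifitm3* (1.33) and *Irf7* (1.32). *Trim25* passed here at 0.60 (SE 0.086, limma, BH FDR = 0.000323), but missed the fold threshold without WY2 (0.52), MY3 (0.54) or WO4 (0.57). *Herc6*, at 0.53 (SE 0.12, limma, BH FDR = 0.00797), and *Parp14*, at 0.55 (SE 0.089, limma, BH FDR = 0.000736), did not reach the fold threshold. The count was 23 without MO5 and 14 with the mice of batch 1. The shares of all genes above are those of the fit on all 16 mice. At an unadjusted limma p below 0.05 there were 37 members and 4899 genes in batch 1, against 37 and 5655 in all mice. The term uses the same MO mice as the comparisons of MO with WO and MY.

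Mice of the WO group differed from each other in a common direction across many members. Both mice of batch 2 of WO (WO4 and WO5) were below its 3 mice of batch 1 in 27 of 41 members, against 15.5% of all genes. WO4 was the lowest WO mouse in 27 members and WO5 in 9. These mice were 294 days old and the others 190 days. MO mice were a larger part of batch 2 than of batch 1, and the covariates of the batch correction were not stated. Age, batch and the correction itself therefore cannot be told apart. The share of all genes is no guide to genes that were high in MO. Among MO mice, both of batch 2 were the lowest in 4 members (*Trim25*, *Parp14*, *Trim30a* and *Slfn2*), against 9.1% of all genes, and the highest in 1 (*Irf7*), against 8.66%. MO5, the youngest MO mouse, was the lowest in 13 members, MO1 in 12 and MO3, the oldest, in 8. MO4 was the highest in 12 and MO2 in 11. The median SD of the members was 0.14 in WO and 0.12 in MO, against 0.087 and 0.10 over all genes. In WY it was 0.11 and in MY 0.083, against 0.094 and 0.051. *Isg15* varied most among MO mice (SD 0.32) and *Dtx3l* least (SD 0.034).

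Other genes of the pathway were read from lists of ligands, receptors, signal transducers, sensors and further induced genes. The counts of each list can be read against the 4.08% of all genes that rose in WO vs. MO and the 4.11% that rose in MY vs. MO. Of 21 interferon genes, 1 (*Ifnz*) was in the table, at 0.025 ± 0.023 in MO and 0.022 ± 0.024 in WO, close to 0. The authors had removed genes without expression in many of the samples. An interferon gene expressed in only a few mice, such as those of 1 group, would therefore be absent from the table. Of 6 receptor subunits, *Ifngr1* and *Il10rb* rose in both comparisons and 0 fell. *Ifngr1*, the ligand-binding chain for interferon gamma, rose by 0.87 (SE 0.090, limma, BH FDR = 7.14e-05) from WO. *Il10rb*, which serves the receptors for interferon lambda and interleukin 10, rose by 0.82 (SE 0.10, limma, BH FDR = 0.000158). The type I receptor chain *Ifnar1* differed by 0.10 and *Ifnar2* by 0.43. The median over the receptors was 0.28 in WO vs. MO and 0.28 in MY vs. MO. Of 12 genes of JAK-STAT and IRF signalling, *Irf8*, *Socs3* and *Irf5* rose in both comparisons, and 0 fell, with medians of 0.14 (WO vs. MO) and 0.18 (MY vs. MO). The kinase gene *Jak1* was lower in MO by the BH FDR alone, with differences of -0.20 (SE 0.043, limma, BH FDR = 0.00623) from WO and -0.23 (SE 0.040, limma, BH FDR = 0.00484) from MY. *Irf8*, a factor needed by microglia and other myeloid cells, rose by 1.87 (SE 0.14, limma, BH FDR = 2.16e-05) from WO. *Socs3*, a feedback inhibitor of cytokine receptors, rose by 1.67 (SE 0.13, limma, BH FDR = 2.21e-05), and *Irf5*, which acts downstream of toll-like receptors, by 1.28 (SE 0.10, limma, BH FDR = 2.16e-05).

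Of 19 genes of nucleic acid sensing, 6 rose from WO, 5 rose from MY and 0 fell, with medians of 0.40 and 0.42. *Ifi204*, a relative of the DNA sensor IFI16, rose by 1.65 (SE 0.12, limma, BH FDR = 2.16e-05) from WO. The endosomal RNA sensor *Tlr7* rose by 1.54 (SE 0.19, limma, BH FDR = 0.000201), and *Unc93b1*, which carries toll-like receptors to endosomes, by 1.36 (SE 0.11, limma, BH FDR = 2.16e-05). The table held 68 of 69 further interferon-induced genes. Of these, 19 rose from WO, 20 rose from MY and 0 fell, with medians of 0.32 and 0.31. By the BH FDR alone, *Gbp11* (limma, 0.00473) and *Ifi203* (limma, 0.00770) were lower in MO than in WO. *Lgals3bp*, a secreted glycoprotein, rose from 3.78 ± 0.32 in WO to 6.14 ± 0.35 in MO, by 2.36 (SE 0.19, limma, BH FDR = 2.16e-05). *Ifi27l2a*, a small mitochondrial protein gene, rose by 1.93 (SE 0.35, limma, BH FDR = 0.00241), with WO mice spread from 1.64 to 3.43. The chemokine *Cxcl10* rose by 1.63 (SE 0.16, limma, BH FDR = 6.49e-05). In WY vs. WO and in WY vs. MY, 0 genes of these 5 lists passed the thresholds in limma. At an unadjusted p below 0.05, these comparisons gave 4 and 5 genes of sensing, 5 and 5 of the further induced genes, 1 and 0 of the receptors, and 0 of the other lists. Over all 18167 genes they gave 2447 and 1301. *Cxcl10* was lower in WO than in WY by the BH FDR alone, with a difference of -0.46 (SE 0.068, limma, BH FDR = 0.0255).

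Some markers of microglia and astrocytes, which can express interferon-stimulated genes, also rose, and their part in the result was not tested. Of 8 microglia markers, 5 rose from WO, 6 rose from MY and 0 fell. The microglial receptor *Csf1r* rose by 1.28 (SE 0.086, limma, BH FDR = 1.50e-05) and *Aif1*, an actin-bundling protein, by 1.75 (SE 0.23, limma, BH FDR = 0.000305) from WO. *P2ry12*, a purine receptor of homeostatic microglia, differed by 0.10 (SE 0.12, limma, BH FDR = 0.623), and the transcription factor *Sall1* by -0.0061 (SE 0.067, limma, BH FDR = 0.964). Of 6 astrocyte markers, 3 rose from WO, 2 rose from MY and 0 fell. Their summed FPKM was 1172, 1179, 1253, 1295 and 1067 in WO1 to WO5 and 2602, 3374, 3046, 2492 and 2684 in MO1 to MO5, and 1660, 1588 and 1528 in WY and 1451, 1473 and 1415 in MY, with *Gfap* the most abundant. *Gfap*, an intermediate filament protein, rose by 1.60 (SE 0.10, limma, BH FDR = 1.46e-05) from WO. In WY vs. WO, the water channel *Aqp4* and the myelin gene *Mog* fell, and no other marker passed.

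Some markers of neurons and oligodendrocytes fell. Of 5 oligodendrocyte markers, 1 fell from WO and 3 fell from MY. The myelin gene *Mbp* varied widely in the old mice of batch 2, at 5.36 in WO4, 14.22 in WO5, 14.11 in MO4 and 14.14 in MO5, against 12.16 to 12.61 in the old mice of batch 1. It differed by 1.55 (SE 1.42, limma, BH FDR = 0.479) between WO and MO, and the cause of this spread was not tested. Of 5 neuron markers, *Nefl* fell in both comparisons, and of 5 motor neuron markers *Chat* fell from WO. By the BH FDR alone (limma), 4 neuron markers and 4 motor neuron markers were lower in MO in each comparison. The differences of all 5 motor neuron markers were negative in both. Counts by the BH FDR alone in this paragraph can be read against those over all 18167 genes. Lower in MO were 2345 genes in WO vs. MO and 2269 in MY vs. MO, and higher were 2730 and 2377. T and NK cell markers were near 0. The table held 7 of 8, and their summed FPKM was 0.179, 0.153, 0.278, 0.0481 and 0.137 in WO1 to WO5 and 0.493, 0.664, 0.438, 0.475 and 0.750 in MO1 to MO5. In WO vs. MO all 7 were higher in MO, and 3 passed the BH FDR in limma (lowest 0.0127). In MY vs. MO 6 were higher, 0 passed the BH FDR, and 1 had an unadjusted p below 0.05. At such levels a fold change of 1.5 on this scale is almost out of reach, so the 0 markers past both thresholds say little about these cells. For the lists that follow, counts at an unadjusted p below 0.05 can be read against 6986 of the 18167 genes in WO vs. MO and 6673 in MY vs. MO. Of 5 markers of B and plasmacytoid dendritic cells, 2 were in the table, and 0 passed both thresholds in limma (unadjusted p below 0.05 for 2 and 1). One of these, *Siglech*, is also expressed by microglia and was at 2.97 ± 0.15 in MO and 2.71 ± 0.15 in WO, which passed the BH FDR only (limma, 0.0479). The other marker was lower in MO, with differences of -0.17 from WO and -0.094 from MY. For monocytes and neutrophils the table held 5 of 6 markers, and 0 passed in limma (unadjusted p below 0.05 for 1 and 0). Their most abundant genes, *S100a8* and *S100a9*, varied within groups, *S100a8* from 1.56 to 4.19 among WO mice. Border macrophage markers (4 genes), blood markers (4 of 5 in the table), endothelial markers (5), meningeal fibroblast markers (4), Schwann cell and nerve root markers (3) and sex markers (5) gave 0 genes past the thresholds in each comparison with MO. Their counts at an unadjusted limma p below 0.05 were 2, 1, 5, 0, 0 and 0 in WO vs. MO and 2, 0, 1, 0, 1 and 0 in MY vs. MO. In WO the median level of the border macrophage markers averaged 0.34 over mice. It was 0.12 for Schwann cell markers and 0.11 for those of monocytes and neutrophils. At such levels, 0 markers past both thresholds again say little about the cells. The Schwann cell marker *Pmp2* was lower in MO than in MY by the BH FDR alone (limma, 0.00460). Of the border macrophage markers, *Mrc1* and *Lyve1* were higher in MO by the BH FDR alone in both comparisons. The 5 endothelial markers were lower in MO than in WO by less than 1.5-fold, 4 of them by the BH FDR alone, with a median of -0.47. In MY vs. MO their median was -0.068 and 0 passed the BH FDR. In WY vs. MY all 5 were lower in MY, with a median of -0.22 and an unadjusted p below 0.05 for 5, and 0 passed the BH FDR (limma).

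Promoter sequences were searched for the motifs through which interferon signalling acts. RefSeq promoter windows (GRCm38.p6), from 250 bases before to 50 bases after the start of a gene, were matched by symbol to 34 of the 41 members, which had 42 windows. *Usp18*, *Dhx58*, *Parp9*, *Parp14*, *Iigp1*, *Rtp4* and *Tor3a* were not matched. The core of the interferon-stimulated response element, GAAANNGAA, was searched on both strands (TTCNNTTTC on the other strand). It was found in 21 of the 42 windows (50.0%), against 8.56% of all 32851 windows of the same length. By gene, 20 of 34 members (58.8%) held a match, against 9.76% of 27025 gene symbols. Among the matched members, it was present in 10 of 16 that rose in WO vs. MO and in 10 of 18 that did not. The gamma-activated site TTCNNNGAA, whose letters read the same on both strands, was found in 8 windows (19.0%) and 8 members (23.5%), against 8.30% of all windows and 9.55% of symbols. In *Bst2* and in *Ifitm3* a match of TTCNNNGAA overlaps a match of GAAANNGAA. A match describes letters only, and binding was not measured.

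The 4 promoters shown are those of the members with the largest rises that hold a match of GAAANNGAA (*Bst2*, *Ifitm3*) and of those that hold none (*Slfn2*, *Irf7*), limited to bases outside annotated exons, or to 30 bases around the matches for *Ifitm3*, where they lie just after the start. Capitals mark whole matches of GAAANNGAA or of its reverse, and each run reads 5′ to 3′ on the strand of the gene. *Bst2* is chr8:71537473-71537722 (minus strand, 250 bases before the start), *Ifitm3* is chr7:141010714-141010743 (minus strand), *Slfn2* is chr11:83064862-83065111 (plus strand, 250 bases before the start) and *Irf7* is chr7:141266482-141266674 (minus strand, 193 bases).
Bst2: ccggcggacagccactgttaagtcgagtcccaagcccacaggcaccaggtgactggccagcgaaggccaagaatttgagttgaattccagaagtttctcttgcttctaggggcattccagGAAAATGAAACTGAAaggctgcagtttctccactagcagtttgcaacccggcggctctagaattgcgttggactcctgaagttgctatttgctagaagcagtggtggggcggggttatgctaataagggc
Ifitm3: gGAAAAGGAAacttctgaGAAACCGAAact
Slfn2: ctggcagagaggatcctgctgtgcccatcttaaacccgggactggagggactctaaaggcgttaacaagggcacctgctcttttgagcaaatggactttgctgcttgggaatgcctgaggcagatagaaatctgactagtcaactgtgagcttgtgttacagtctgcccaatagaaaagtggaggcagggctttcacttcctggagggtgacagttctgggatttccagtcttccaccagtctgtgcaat
Irf7: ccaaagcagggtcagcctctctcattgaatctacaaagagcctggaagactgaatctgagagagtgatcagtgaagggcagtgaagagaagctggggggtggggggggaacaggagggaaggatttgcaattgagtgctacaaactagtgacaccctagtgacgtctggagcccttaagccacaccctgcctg

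In 6 members, neighbouring matches of GAAANNGAA overlap, so that the letters GAAA recur at a fixed spacing. The 30 bases around them, chosen after the matches were seen, are given for the 5 members other than *Bst2*. *Gbp3* is chr3:142559996-142560025 (plus strand), *Isg15* is chr4:156200871-156200900 (minus strand), *Irgm1* is chr11:48871425-48871454 (minus strand), *Eif2ak2* is chr17:78882529-78882558 (minus strand) and *Ifit1* is chr19:34640776-34640805 (plus strand). In *Gbp3* and *Ifit1* the reverse letters are on the strand of the gene. *Eif2ak2*, whose match lies after the start, did not reach 1.5-fold, and the other 4 rose between WO and MO.
Gbp3: cagtTTCAGTTTCTATTTCccagatccctg
Isg15: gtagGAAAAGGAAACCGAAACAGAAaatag
Irgm1: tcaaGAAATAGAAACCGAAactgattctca
Eif2ak2: ccggGAAAACGAAACAGAAgagaaccggcc
Ifit1: aggcTTCAGTTTCACTTTCcagtctcagtt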

How the data were processed

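Spinal cord RNA of 16 mice was extracted with TRIzol, made into libraries with the TruSeq Stranded mRNA kit and sequenced on an Illumina NextSeq. Per the labels' processing notes, the authors used Trimmomatic, TopHat and Cufflinks with the mm10 build. The deposited log2 values were made by the authors from FPKM, with 1 added, after removal of unexpressed genes and correction of 2 library batches with ComBat. They held 915 values below 0, none of them of a member, and none exactly 0. Comparison columns of the authors were not used, and uncorrected values and read counts were not analysed here. Sequencing depth of single genes is not known, and the variation among mice served to judge precision.

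The unit of analysis was the mouse. Each comparison was fitted on its own groups by limma 3.58.1 under R 4.3.3, using the functions lmFit and eBayes at their defaults with two-sided tests, second group minus first, and the interaction on 4 group means. P values were adjusted by Benjamini-Hochberg over 18167 genes, with thresholds of FDR 0.05 and a fold change of 1.5. The procedure was tested on simulated data. Tables, sequences and plots were made in Python 3.11.15 with pandas 2.3.3, NumPy 2.4.6, SciPy 1.17.1 and matplotlib 3.10.9. Positions came from GENCODE M21 (GRCm38) and promoter windows from RefSeq (GRCm38.p6), joined by symbol.

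The members and the lists of pathway genes and of cell type markers were chosen with earlier results of these data known, so no test of a list was made. Values of every mouse were given for the members with the largest and the smallest absolute difference between WO and MO in each role (the largest alone in roles of 3 genes), and group means for all others. Of each pathway list, the 3 largest differences among genes that passed in WO vs. MO were named. *Ifnar1*, *Ifnar2*, *Jak1*, *Gbp11*, *Ifi203*, the named markers, the members that missed a threshold under an alternative and the overlapping promoter matches were chosen after their values were seen. Single values of some genes of the lists are not reported here. Ifitm2 and Ifitm3 proteins were to be compared and were not used here. Alternatives were the mice of batch 1, batch as a term, all groups in 1 fit, genes with a mean of at least 1, quantile normalization, a pseudocount of 0.1, an intensity trend, the replicate number as a block, and leaving out each mouse.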

Additional observations from a re-analysis of the deposited data

Results flagged for a closer look

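Single mice that stood apart from their group were looked for among the 5 WO and the 5 MO mice of each member, and 2 of 82 groups (2.44%) held one, while chance gives about 1 in 20 groups. The level of *Dhx58* in WO2 was 1.33, against 0.97 to 1.07 in the other WO mice. That of *Igtp* in WO4 was 1.71, against 2.02 to 2.15. The cause was not tested.

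The change from young to old differed between genotypes, by the interaction term in limma, for 22 members, all with a positive term. Each term also holds the difference between WY and WO, which was negative for some of these genes and positive for others. On the log2 scale the 4 largest terms were those of *Irf7* (1.32), *Bst2* (1.94), *Ifitm3* (1.33) and *Slfn2* (1.38). Terms near 1 were found for *Ifit1* (0.92), *Ifit3* (0.95), *Isg15* (1.07), *Usp18* (0.94), *Oasl2* (1.09), *Ifitm2* (1.11), *Gbp2* (1.09) and *Trim30a* (1.10). Smaller terms were those of *Irf9* (0.68), *Ifi35* (0.64), *Trim25* (0.60), *Rsad2* (0.66), *Parp9* (0.63), *Gbp3* (0.76), *Irgm1* (0.74), *Rtp4* (0.61), *Tor3a* (0.64) and *Ifi44* (0.64). Among these, *Rtp4* missed a threshold in 6 of the 16 fits that left out 1 mouse (without WY1, MY1, MY3, WO4, MO2 or MO4), with 0.47 without WY1 the lowest. *Ifi35* missed a threshold without WY1 (0.51), MY1 (0.58) or WO4 (0.58), *Irf9* without WY1 (0.50) and *Parp9* without WO5 (0.58). Among the mice of batch 1, 8 of the 22 terms missed a threshold, those of *Tor3a* (0.56), *Rsad2* (0.58), *Ifi44* (0.53), *Trim25* (0.58), *Parp9* (0.55), *Ifi35* (0.53), *Rtp4* (0.52) and *Usp18* (0.80, limma, BH FDR = 0.0536). After quantile normalization 6 missed one, those of *Ifi35*, *Ifi44*, *Parp9*, *Rsad2*, *Rtp4* and *Trim25*.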

How the results depend on the processing

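A pseudocount of 0.1 in place of 1 raised the members past the thresholds to 35 in MY vs. MO and 33 in WO vs. MO, and the medians to 0.81 and 0.86. Over all genes, the count past the thresholds in MY vs. MO also went up, from 890 to 1483. A smaller pseudocount widens the fold of genes of low abundance by construction. Quantile normalization moved the median in MY vs. MO to 0.49 and left 16 members past the thresholds, without *Gbp3*, *Herc6*, *Ifi44*, *Parp9* and *Rsad2*. Over all genes it gave a median of -0.027 and 840 genes past the thresholds there, against 0.0047 and 890. In WO vs. MO it left 17, without *Herc6*, *Ifi35*, *Parp14* and *Parp9*, and in the interaction 16. Counts of all genes past both thresholds are not reported here for these fits. They are also not reported for a pseudocount of 0.1 in WO vs. MO, for batch 1, for the replicate block or for fits that left out a mouse. In those fits, changes particular to the members cannot be told from changes shared by all genes. The mice of batch 1 left 16 members in WO vs. MO, without *Gbp3*, *Ifi35*, *Isg15*, *Parp14* and *Parp9*. There 38 members and 5273 genes had an unadjusted limma p below 0.05, against 38 and 6986 with all mice of these groups. The mice of batch 1 gave 14 members in the interaction, with 12 of the 16 mice. *Stat2* in MY vs. MO, at 0.039, was -0.0080 with batch 1 alone, with batch as a term and with the replicate block, and passed in none of them. The cause of the changes under quantile normalization and in batch 1 was not tested. Over all alternatives, 82 of 85 counts stayed within 1.5-fold. The 85 include the counts of WY vs. WO and WY vs. MY, which were 0 in the main fits and say little about stability. Of 62 medians, 59 stayed within 1 SD between mice. Of 474 fold changes of the 14 members given by mouse, 456 kept their direction and side of the thresholds. Of the others, 10 no longer passed, 5 passed anew and 3, those of *Stat2*, changed direction. These 14 include the largest difference of each role. Over all 41 members and all alternatives, a rise was lost 15 times in MY vs. MO (6 members) and 16 times in WO vs. MO (6 members), aside from members below the minimum mean. In the interaction a term past the thresholds was lost 29 times (9 members), counted in the same way.

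Leaving out each mouse in turn gave 19 to 23 members in MY vs. MO, 18 to 22 in WO vs. MO, 0 to 0 in WY vs. WO and in WY vs. MY, and 19 to 24 in the interaction. The medians ran from 0.57 to 0.63 between MY and MO and from 0.56 to 0.63 between WO and MO. They ran from -0.070 to 0.027 for age in wild-type mice (WY vs. WO) and from -0.070 to 0.020 for genotype in young mice (WY vs. MY). As a check of pairing, deviations from group means were correlated over genes. Mice of the same number gave -0.207 to 0.377 (median 0.021), with 5 of 20 pairs above 0.1. Mice of different numbers gave -0.294 to 0.276 (median -0.0060), with 10 of 74 above 0.1, and the numbers were not used to pair mice. The replicate block gave 21 members in MY vs. MO, 21 when MO was set against WO, 21 in the interaction and 0 for age or genotype alone. Under this block *Isg15* missed the fold threshold in MY vs. MO (0.55). *Rtp4* missed the BH FDR in the interaction (0.61, limma, BH FDR = 0.0546). Groups of 3 and 5 mice, an unknown depth per gene and 1 line per genotype limit all comparisons.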
